A study of Homo sapiens with 12 samples.

Results

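Circular RNAs (circRNAs) are closed loops made when the end of an exon is joined back to the start of an earlier or the same exon, and a sequencing read across that back-splice junction counts 1 copy. The circRNAs described here come from host genes named ZNF with a number, most of which code for zinc finger proteins. They were taken as all circRNAs in the deposited table whose host gene is named ZNF followed by digits and optional letters, with at least 1 junction read over the 12 libraries. The hosts ZNF292, ZNF395 and ZNF609 were left out of this set. The rule used the gene name and detection alone, and gave 149 circRNAs of 83 hosts among 9526 circRNAs of 4068 hosts. They held 1188 of 71526 junction reads, or 1.66%.

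The libraries came from LN229 and T98G, a pair of established human glioblastoma cell lines. Normoxic LN229 and normoxic T98G cells were kept in 95% air with 5% CO2, and hypoxic LN229 and hypoxic T98G cells in 1% O2 with 5% CO2. Each of these 4 groups held 3 libraries, and all groups shared the same medium with serum and the same ribosomal RNA removal. The labels name no edited allele or transgene in either line. How long the cells spent in hypoxia was not given in the sources used here. Labels do not tell whether libraries of the same group were grown separately, so every p-value measures the spread between these libraries, which may be technical. The table holds junction reads and no linear RNA, so the cell type could not be checked against its messenger RNAs. None of the 8 glial and glioblastoma marker genes, 4 fibroblast, 3 endothelial and 3 immune marker genes looked up had a circRNA read.

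Most ZNF proteins are DNA-binding factors of the C2H2 class. Each finger is a short fold held by a zinc ion, and many fingers follow one another in a row, joined by a conserved linker. Many ZNF proteins of primates also carry a KRAB domain, which recruits the corepressor TRIM28 (KAP1) and histone H3 lysine 9 methylation to silence transposable elements. In such genes the KRAB domain is usually coded by short exons near the front of the gene and the whole row of fingers by the long last exon. Many of these genes lie in clusters on chromosome 19. The circRNAs of a gene can hold only the exons between the start and the end of the loop.

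The junctions below are those of the 10 exonic ZNF circRNAs with most reads whose exons could be matched, and they are shown because a junction read identifies each loop. Each sequence is 30 bases of the RNA written as DNA, 5′ to 3′ on the strand of the gene, from GENCODE 29 transcripts. A ZNF451 loop with as many reads as the last pair is not shown. The 15 bases in lower case are the end of the last exon of the loop, and the 15 in capitals are the start of its first exon, which follows directly in the circle. Positions are those of the deposited table, in hg19.
ZNF532, chr18:56601665-56621031, plus strand: aaggagcacgggaagAAGACTTGCACTATC
ZNF800, chr7:127013396-127017383, minus strand: taaggctcttgtctgGAACTAAACAACTTA
ZNF236, chr18:74561482-74563895, plus strand: catgaaaaggaagagATGGAGTTTTAACAT
ZNF148, chr3:125032152-125050082, minus strand: gcacttaatgtccctGATAGAGGGAGGAAT
ZNF81, chrX:47705504-47755339, plus strand: atcagagctgttcagAGTTCTTGGAGTCTC
ZNF236, chr18:74561482-74593468, plus strand: caccgtttctacctgATGGAGTTTTAACAT
ZNF720, chr16:31733947-31734674, plus strand: tagccatccagccagGGACTGTTGACATTC
ZNF638, chr2:71623271-71645769, plus strand: attagaaaaagaaagCCAAAACTGGACAAG
ZNF532, chr18:56585503-56587865, plus strand: gatacgagtggacaaAACATCTGCTCAAAT
ZNF644, chr1:91403042-91447927, minus strand: tgactatgcactcagGTTTGATTTAATTTT
Both ZNF236 junctions carry the same capitals, because both loops begin at exon 2 of the gene and differ only in where they end. The ZNF532 pair has no shared part: the longer loop is exon 4 alone and the more abundant loop runs from exon 5 to exon 8.

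Reads were spread thinly and unevenly over the ZNF circRNAs. Their median was 4 reads over all libraries, beside 3 for the circRNAs of other hosts. Of the 149, 14 had 1 read, 67 had 2 to 4, 42 had 5 to 9 and 26 had 10 or more, and these 26 held 61.2% of the ZNF reads. Only 4 circRNAs were found in every library, namely both leading loops of ZNF124, the leading loop of ZNF532 and the loop of ZNF800. A further 42 were found in 1 library each. Libraries held 4298 to 7608 junction reads in all, of which 65 to 135 came from ZNF hosts. A library with no read of a circRNA still allowed 3 counts, a share of 0.0394% to 0.0698% of its junction reads, for counting error alone.

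ZNF124 on chromosome 1 gave more ZNF junction reads than any other host, 258 over 4 loops. The normoxic LN229 libraries held 31, 25 and 24 of them, and the hypoxic ones 20, 25 and 30. The normoxic T98G libraries held 13, 19 and 19, and the hypoxic ones 17, 16 and 19. The oxygen groups overlapped in both lines. All 4 loops start at the same base, chr1:247323115 on the minus strand, and they differ in their far end. The loop ending at 247319708 had 122 reads, the one at 247318868 had 104, the one at 247302018 had 17 and the one at 247320302 had 15. The table classes all 4 as sense overlapping, a class whose listed length equals the genomic span, so it gives no exon content for them.

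ZNF236, a gene of many fingers on chromosome 18, had 97 reads over 8 loops. Of these loops, 6 start at the same base, 74561482, and they held 90 of the 97 reads. The loop of exons 2 and 3 had 37 reads and that of exons 2 to 9 had 19. The loops of exons 2 to 5, 2 to 4 and 2 to 6 had 10, 9 and 6. The loop from exon 23 to exon 30, near the other end of the gene, had 5. Summed over loops, ZNF236 gave LN229 13, 7 and 9 reads under normoxia against 3, 9 and 10 under hypoxia. It gave T98G 8, 10 and 10 under normoxia against 1, 4 and 13 under hypoxia. The hypoxic T98G group held both its lowest and one of its highest values.

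ZNF532, whose product is a partner of ZMYND8 in a chromatin complex and is fused to NUT in some NUT carcinomas, had 75 reads. Its loop of exons 5 to 8 had 60 and the loop of exon 4 alone had 15. The first was read in all 12 libraries, with 7, 5 and 5 reads in normoxic against 2, 6 and 4 in hypoxic LN229 cells. Normoxic T98G cells gave 9, 7 and 6 and hypoxic ones 2, 4 and 3. The T98G groups did not touch, while those of LN229 overlapped. The loop of exon 4 was seen in 6 libraries, with 6 reads in 1 LN229 normoxia library.

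ZNF148, also known as ZBP-89, is a factor that binds GC-rich promoters. It had 44 reads over 4 loops, of which 3 start at 125050082 and held 39 reads. Its leading loop, listed in circBase as hsa_circ_0001333, joins exons 2 to 4 and includes the start codon. Normoxic LN229 cells gave 1, 2 and 3 reads of that loop and hypoxic ones 2, 1 and 7. Normoxic T98G cells gave 7, 4 and 4 and hypoxic ones 0, 0 and 0. It was absent from the reads of all 3 hypoxic T98G libraries.

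ZNF827, which recruits the NuRD chromatin remodelling complex to telomeres in cells that use alternative lengthening, had 42 reads over 8 loops. No single loop led, and the highest of them held 21.4% of the reads. Of the loops, 4 begin at 146824367, the start of exon 2, and 2 end with exon 8, 1 of which does both. Summed over loops, ZNF827 gave LN229 6, 5 and 2 reads under normoxia against 4, 1 and 2 under hypoxia. It gave T98G 5, 6 and 7 under normoxia against 2, 1 and 1 under hypoxia. The T98G groups stood apart, and those of LN229 overlapped. The loop of exons 6 to 8 had 8 reads, all in T98G, and 5 of them were in 1 normoxic library.

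ZNF638, which silences unintegrated retroviral DNA together with the HUSH complex, had 40 reads over 7 loops. Its leading loop runs from exon 11 to exon 21. Normoxic LN229 libraries held 1, 3 and 1 reads of it against 0, 0 and 3 in the hypoxic ones, and normoxic T98G libraries 5, 2 and 3 against 0, 0 and 0. As for ZNF148, the hypoxic T98G libraries held no read of it. A further ZNF638 loop, of exons 3 to 21, joined 19 exons, the most of any ZNF circRNA matched.

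ZNF800 gave a single loop, of exons 4 and 5 in a gene of 6 exons, with 41 reads. Normoxic LN229 libraries held 7, 5 and 4 of them against 4, 2 and 2 in the hypoxic ones, and normoxic T98G libraries 3, 5 and 2 against 3, 1 and 3, so the groups overlapped in T98G and met in LN229. ZNF644, a partner of the histone methyltransferases G9a and GLP, had 36 reads over 5 loops, with 2 to 5 reads in each library. One of its loops, at chr1:91382197-91447927, was classed as sense overlapping and had the largest listed length of the ZNF circRNAs, 65731 bases, with 4 reads. The longest span on the genome, 79794 bases, was that of a ZNF827 loop with 1 read and a listed length of 2340 bases. ZNF394 gave 1 intronic loop of 29 reads, from 0 to 8 per library. ZNF451, a SUMO ligase, had 27 reads over 4 loops. ZNF514, with 22 reads for its leading loop, and ZNF81 on the X chromosome, with 23 for its only loop, complete the 10 loops with most reads.

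ZNF587 had 44 reads over 3 loops. Its leading loop, chr19:58374733-58375127, is not listed in circBase. Normoxic LN229 libraries held 1, 2 and 5 reads of it against 0, 5 and 2 in the hypoxic ones, and normoxic T98G libraries 0, 4 and 2 against 6, 2 and 5. The other loops, chr19:58287911-58291514 and chr19:58290119-58291514, are intronic, with 6 and 4 reads. A ZNF587B loop at chr19:58353184-58353351 lies between them and the leading loop, so the ZNF587 host sum joins separate places. ZNF587 has a near-identical neighbour, ZNF587B, and ZNF286B has one in ZNF286A. How the authors assigned reads between such copies was not given in the sources used here, so the reads of these hosts are uncertain. Whether counting used the strand was not stated either.

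**Figure D1:**
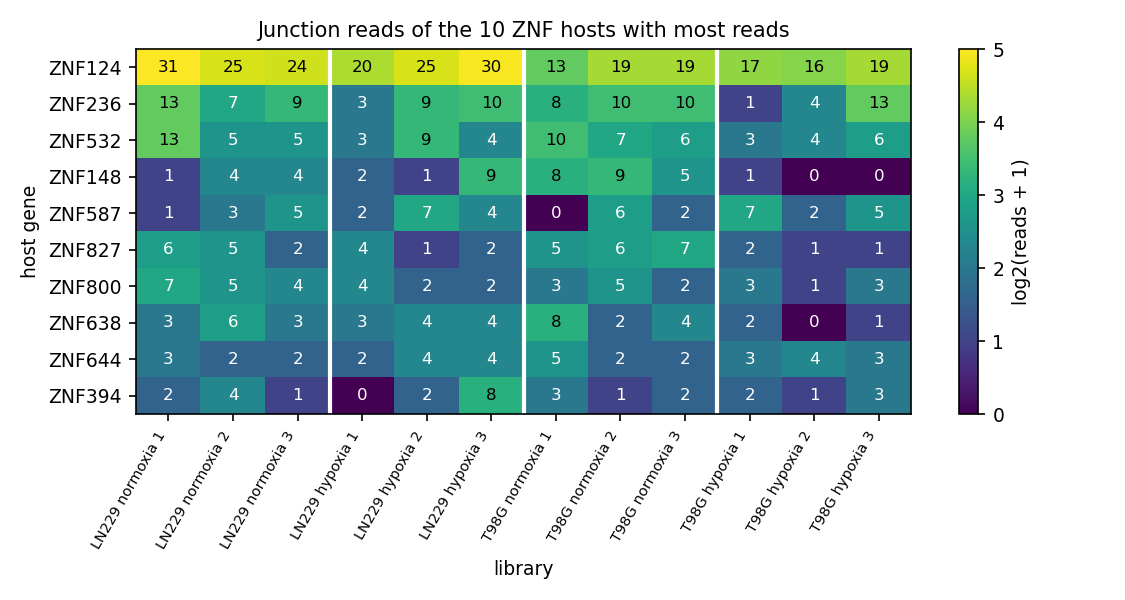
Junction reads of the 10 ZNF hosts with most reads (rows) in each of the 12 libraries (columns, white lines between groups), with the count written in each cell and the colour giving log2(reads + 1). ZNF124 holds 13 to 31 reads in every library, and ZNF148 has 1, 0 and 0 reads in T98G hypoxia.

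By class, 97 of the ZNF circRNAs were exonic, 32 sense overlapping and 20 intronic. The exonic share was 65.1%, beside 82.1% for the circRNAs of other hosts, and the share of reads in exonic loops was 56.5% beside 88.9%. Sense overlapping loops held 33.9% of the ZNF reads beside 7.16% for other hosts, and 258 of their 403 ZNF reads were those of ZNF124. The circBase share was close, 73.1% beside 76.4%. Exonic ZNF loops had a median length of 612 bases beside 556, with the middle range from 337 to 1152 bases. The shortest exonic loop was that of ZNF791 at chr19:12734514-12735524, 188 bases and 2 reads. The longest was that of ZNF462, a factor linked to a human developmental syndrome, at chr9:109685635-109701388, with 6457 bases and 3 reads, all in 1 T98G normoxia library. The shortest ZNF loop of any class was an intronic loop of ZNF3, 161 bases long. These are comparisons of counts over loops that share hosts, and they were not tested.

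Chromosome 19 carried 39 of the 149 circRNAs, from 30 of the 83 hosts. That is 26.2% of the ZNF loops, while 1.77% of the loops of other hosts lay there, and ZNF loops made up 19.02% of all 205 loops of the chromosome. Its share of the ZNF reads was below its share of the loops, with 170 reads or 14.3%. The median was 2 reads per loop on chromosome 19 and 5 elsewhere. Of its hosts, 24 of 30 had a single loop, beside 26 of 53 hosts elsewhere. Loops there were less often exonic, 46.2% beside 71.8%, and the exonic ones were shorter, with a median of 305.5 bases beside 762. Chromosome 18, with 16 loops of 6 hosts, held 196 reads, and chromosome 1, with 10 loops of 3 hosts, held 297, most of them from ZNF124.

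**Figure D2:**
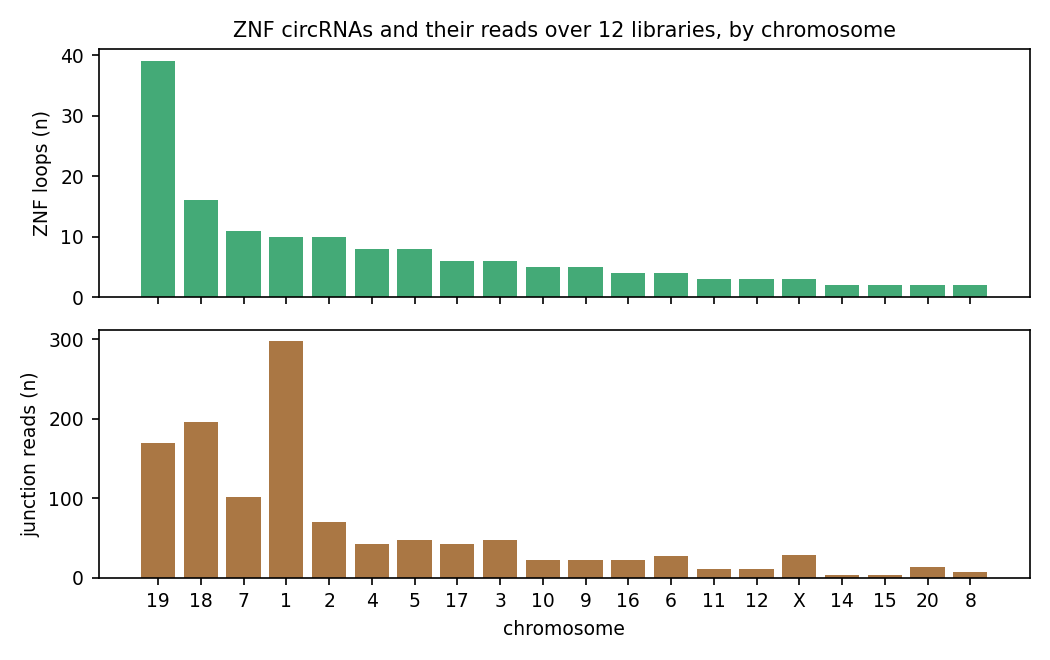
Number of ZNF circRNAs (upper bars) and their junction reads summed over 12 libraries (lower bars) by chromosome, in order of loop number. Chromosome 19 leads with 39 loops, while chromosome 1 leads in reads with 297.

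Of the 83 hosts, 50 gave a single loop and 33 gave 2 or more. Among those 33, 15 had loops that share a start and 15 had loops that share an end, 45.5% each. Starts and ends were compared by position over loops of all classes, and no splice site was checked. For the 1964 other hosts with 2 or more loops the shares were 53.9% and 46.3%. Loops of 1 host that share an end share sequence and are not independent. All 3 loops of ZNF331 begin at 54025110 and all 3 loops of ZNF585B at 37698156, both on chromosome 19. The latter was named after its values were seen.

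Exon content was read by matching each exonic loop to a GENCODE 29 transcript of the same gene with a stretch of exons of equal genomic span and equal spliced length. Of the 97 exonic ZNF loops, 94 matched, each at 1 position, beside 7388 of 7687 loops of other hosts. Of the matched ZNF loops, 48 of 94 began at exon 2, 51.1% beside 31.9% for other hosts. A further 28 of 94 ended at the exon before the last, 29.79% beside 12.03%. None contained the last exon, which 7 loops of other hosts did, or 0.0948%, so the ZNF loops were near the background here. The median was 3 exons beside 4, and 11.7% were a single exon beside 4.59%. On coding transcripts, 29 of 91 loops held the start codon, 31.87% beside 15.01%, and 58 were coding throughout, 63.7% beside 82.9%. These shares depend on how many exons a transcript has, which was not compared between the sets. Loops of the same host were counted separately, also where they share exon 2, and the shares were not tested.

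The row of fingers was looked for in the loops by the linker between fingers. The linker between C2H2 fingers has the sequence Gly-Glu-Lys-Pro at its core, and the DNA motif GGNGANAANCC, where N is any base, was used to find it. It was searched on the sense strand of each matched loop, read as a circle, and on the antisense strand as a background. It occurred in 14 of 94 ZNF loops, 14.9%, beside 1.39% of the loops of other hosts. On the antisense strand it occurred in 0 of the ZNF loops and in 0.961% of the others. By length, 10.3% of 39 ZNF loops under 500 bases held it, 11.1% of 27 loops of 500 to under 1000 bases and 25% of 28 loops of 1000 bases or more. The shares for other hosts were 0.548%, 1.24% and 3.36%. A match is a description of letters and not of a working finger, and transcripts with few matches may code fingers with other linkers.

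Of the 94 loops, 32 came from transcripts with 3 or more such motifs, and for the others the motif does not locate the fingers. In 22 of these, or 68.8%, the loop held none, and only 17 of the 216 motifs of these transcripts, counted once per loop, lay in the loop. On chromosome 19 this was so for 10 of 11. The exception there was ZNF550, whose loop at chr19:58057825-58064090 held all 6 motifs of its transcript and the stop codon, with 2 reads, both in 1 LN229 hypoxia library. A ZNF418 loop of 2425 bases held both motifs of its transcript, with 4 reads. Among the loops printed above, that of ZNF236 exons 2 to 9 held 1 of the 4 motifs of its transcript, while the ZNF148 loop held 0 of 3 and the ZNF81 loop 0 of 5. The matched transcripts of ZNF532, ZNF800 and ZNF638 have no such motif, so their loops could hold none. ZNF550 and ZNF418 were named after their values were seen.

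**Figure D3:**
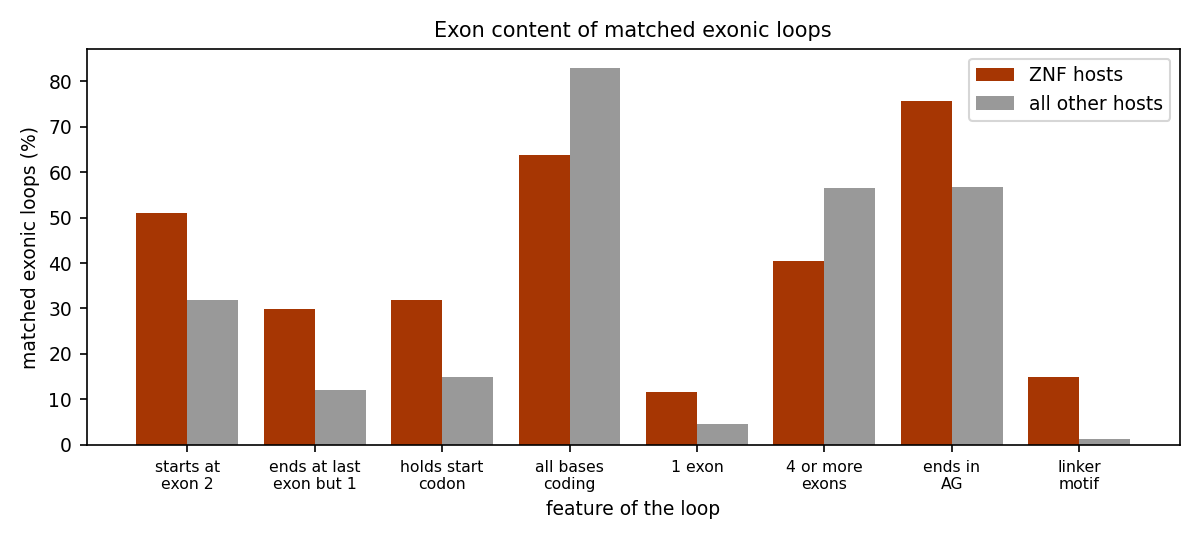
Percentage of matched exonic circRNAs with each feature, for the 94 ZNF loops and the 7388 loops of all other hosts; the start codon and coding bars count loops on coding transcripts only. ZNF loops start at exon 2 in 51.1% beside 31.9%, end at the exon before the last in 29.79% beside 12.03%, and hold the linker motif in 14.9% beside 1.39%. Loops of the same host are counted separately, and the number of exons per transcript was not compared.

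The comparison of hypoxia with normoxia asks how oxygen changes circRNA levels in each line. Summed over all 149 circRNAs, the ZNF share of junction reads was lower in T98G hypoxia than in T98G normoxia, in every library. It was 2.10%, 2.51% and 1.797% in normoxia and 0.9502%, 1.28% and 1.23% in hypoxia. The means were 2.14% ± 0.36 (SD, n = 3) and 1.15% ± 0.18 (SD, n = 3), and the 6 libraries did not overlap. The 95% Wilson intervals of the single libraries ran from 1.49% to 3.03% in normoxia and from 0.746% to 1.61% in hypoxia, for counting error alone. ZNF circRNAs gave 325 reads in normoxia from 86 loops and 215 in hypoxia from 72 loops. No p-value is given for this sum, because the members were chosen with results of these data known. In such bulk RNA, a smaller fraction of cells with these loops and fewer copies per cell cannot be told apart.

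In LN229 the ZNF share was 2.38%, 2.22% and 1.17% in normoxia and 1.16%, 1.68% and 2.22% in hypoxia. The groups overlapped almost entirely. The means were 1.93% ± 0.66 and 1.69% ± 0.53 (SD, n = 3 each), and the difference turned from -0.24 to 0.02 percentage points without the first hypoxia library. It was -0.62 without the third normoxia library.

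Reads from CYP24A1, the vitamin D 24-hydroxylase, were many where the ZNF share was low and few where it was high. A single library in LN229 normoxia, the third, had 1880 CYP24A1 reads while the other two had 2 each, so this library stood apart from its group. The hypoxic LN229 libraries had 1499, 387 and 1 such reads. In T98G normoxia there were 0, 1 and 679 reads, and in T98G hypoxia 1336, 1006 and 1376. Over all groups, the 5 libraries with at most 2 CYP24A1 reads had a ZNF share of 2.10% to 2.51%. The 2 libraries with 387 and 679 had 1.68% to 1.797%, and the 5 libraries with 1006 or more had 0.9502% to 1.28%. These last 5 include 1 LN229 normoxia and 1 LN229 hypoxia library.

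A share falls when any other circRNA takes more of the reads, so the ZNF share was also taken over the reads other than those of CYP24A1. The same 5 low libraries then had 1.18% to 1.57%, and the 5 with at most 2 CYP24A1 reads still had 2.10% to 2.51%. In T98G the means became 2.21% ± 0.26 in normoxia and 1.44% ± 0.22 in hypoxia (SD, n = 3 each), a ratio of 0.65, and the libraries still did not overlap. Without the third T98G normoxia library, the one with 679 CYP24A1 reads, the difference over all junction reads was -1.15 percentage points, beside -0.98 with it. The part of CYP24A1, or of whatever moves with it, in the ZNF result was not tested beyond these values. This ordering of the libraries was made after their values were seen.

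**Figure D4:**
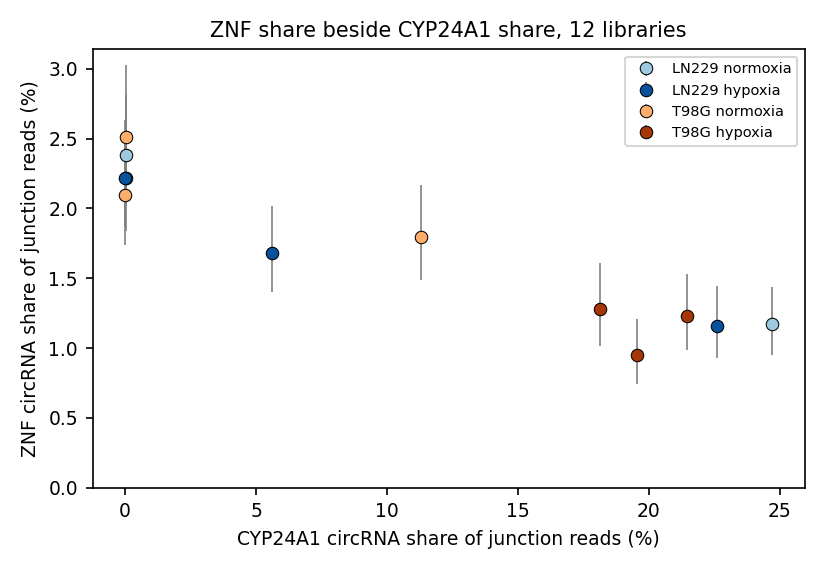
ZNF share of all junction reads in percent (vertical axis, points with 95% Wilson intervals) against the CYP24A1 share in percent (horizontal axis) for the 12 libraries, coloured by group. The 5 libraries on the left with at most 2 CYP24A1 reads lie between 2.10% and 2.51%, and the 5 with 1006 or more lie between 0.9502% and 1.28%.

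In T98G the exonic ZNF circRNAs took a lower share in hypoxia. Of the reads other than those of CYP24A1, exonic ZNF circRNAs took 1.46%, 1.51% and 1.35% in normoxia and 0.545%, 0.814% and 0.814% in hypoxia. The means were 1.44% ± 0.08 and 0.724% ± 0.155 (SD, n = 3 each), a ratio of 0.503, with no overlap. Exonic circRNAs of all other hosts except CYP24A1 took 86.0% ± 0.3 and 85.7% ± 0.5. As they make up most of that total, their share could hardly move and is no control for a small set. Sense overlapping circRNAs of other hosts took 8.28% ± 0.13 and 7.95% ± 0.13, with no overlap, and intronic ones 3.05% ± 0.55 and 3.25% ± 0.37, with overlap. Sense overlapping ZNF circRNAs took 0.571% ± 0.162 in normoxia and 0.587% ± 0.069 in hypoxia, and these libraries overlapped. ZNF124, which gives most of that class, took 0.350% and 0.346%. Intronic ZNF circRNAs took 0.200% ± 0.063 and 0.125% ± 0.015, and these libraries also overlapped. The difference between the classes was not tested.

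The T98G libraries also stood apart without either of these hosts. The ZNF share was 1.86% in normoxia and 1.09% in hypoxia without ZNF124, and 2.06% and 1.43% without ZNF148, with no overlap in either case. They stood apart on chromosome 19 too, with 0.310% and 0.173%, and off it, with 1.90% and 1.26%, again with no overlap. On chromosome 19 this rests on 11, 22 and 11 reads in normoxia against 9, 8 and 9 in hypoxia. The 57 hosts under 10 reads did not separate the T98G groups, with 0.296% and 0.233%. The 26 hosts of 10 reads or more did, with 1.92% and 1.21%. In LN229 none of these subsets separated the groups. Its exonic ZNF share was 1.502%, 1.174% and 0.768% in normoxia and 0.856%, 0.876% and 1.14% in hypoxia.

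**Figure D5:**
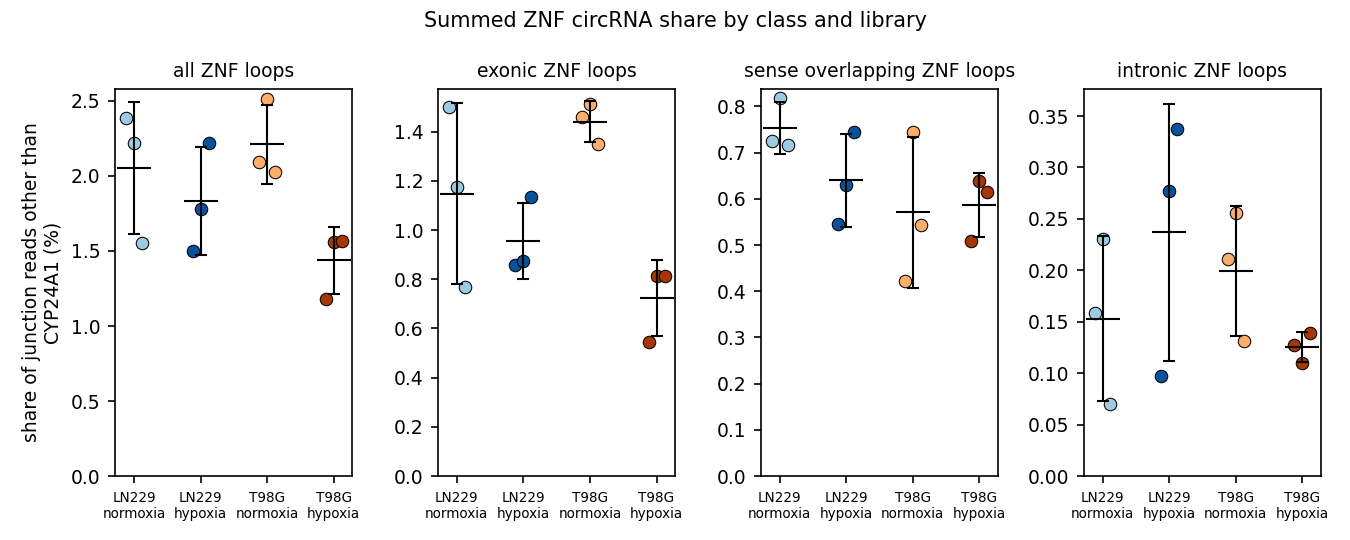
Share of the junction reads other than those of CYP24A1, in percent, taken by all ZNF circRNAs and by the exonic, sense overlapping and intronic ones, in 4 groups of 3 libraries; points are libraries and bars mean ± SD. The exonic panel shows the T98G normoxia libraries at 1.35% to 1.51% and the T98G hypoxia libraries at 0.545% to 0.814%, while the sense overlapping panel shows them mixed.

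Single ZNF circRNAs were then read off an edgeR quasi-likelihood fit of the whole table, which kept circRNAs reaching 5 reads or more in 3 libraries or more. Only 5 of the 149 members, from 4 hosts, passed that filter: both leading loops of ZNF124 and the leading loops of ZNF532, ZNF800 and ZNF587. None of the 5 was called at a Benjamini-Hochberg adjusted p of 0.05 in LN229, where 0% of all 244 circRNAs tested were called, or in T98G, where 0.41% were. Averaged over the lines none was called beside 4.1% of all, and none was called between the lines or for the difference of the responses, beside 0% of all for each. At an unadjusted p of 0.05 the count was 0 in LN229, in T98G, between the lines and for the difference, and 1 for the average. DESeq2 and limma on the deposited log2 values also called 0 of the 5 in each comparison.

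The loop with the smallest p was that of ZNF532 exons 5 to 8. Its T98G mean was 1299 ± 343 CPM (reads scaled to the TMM-adjusted library total) under normoxia against 550 ± 228 under hypoxia (SD, n = 3), a log2 fold change of -1.22 (SE 0.60) with an adjusted p of 0.243 by edgeR. Over its alternatives the adjusted p ran from 0.125 to 0.818. In LN229 it was at 939 ± 190 and 630 ± 280 CPM, and averaged over the lines the log2 fold change was -0.88 (SE 0.42), with an unadjusted p of 0.0483 and an adjusted p of 0.254 by edgeR. It was lower in the hypoxia mean of both lines and the T98G libraries did not overlap, but the change did not pass.

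For the ZNF800 loop the LN229 log2 fold change was -1.02 (SE 0.74) and the T98G one -0.50 (SE 0.80). The ZNF124 loop ending at 247319708 had -0.12 (SE 0.45) and -0.49 (SE 0.50), and the one ending at 247318868 had -0.45 (SE 0.53) and 0.50 (SE 0.54). For this second loop the T98G response exceeded the LN229 response by 0.95 with a 95% interval from -0.52 to 2.43. The ZNF587 loop had -0.24 (SE 1.08) and 1.06 (SE 1.06), with 95% intervals from -2.36 to 1.89 in LN229 and from -1.01 to 3.13 in T98G. All 5 loops had a negative value in the LN229 fit, beside 51.6% of all 244, and 3 of 5 in the T98G fit, beside 50.4%. The median over all 244 in T98G was -0.02. The ZNF800 loop reached the 5 reads of the filter only in normoxia libraries, so nothing is rested on these counts. In LN229 the sign turned for 3 of the 5 when 1 library was left out: to 0.036 for the ZNF124 loop ending at 247318868 without the second hypoxia library, to 0.15 for the one ending at 247319708 without the first hypoxia library and 0.096 without the first normoxia library, and for the ZNF587 loop to 0.46 without the third normoxia library and 0.31 without the first hypoxia library.

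Between the lines, T98G against LN229 averaged over oxygen, the log2 fold changes of the 5 loops ran from -0.60 for the ZNF124 loop ending at 247319708 to 0.38 for the ZNF587 loop. The first had an unadjusted p of 0.0898 and an adjusted p of 0.97 by edgeR. The ZNF124 loop ending at 247320302 had 14 of its 15 reads in LN229 and 1 in T98G, too few for the filter of 5 reads in 3 libraries. With 2 reads in 3 libraries its log2 fold change was -3.30 (SE 1.10), with an unadjusted p of 0.00283 and an adjusted p of 0.63 by edgeR, so it did not pass.

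Sums per host let 7 of the 83 hosts be tested: ZNF124, ZNF148, ZNF236, ZNF532, ZNF587, ZNF800 and ZNF827. None was called in LN229 or in T98G, where 0% of all 418 hosts were called in each, and none for the average, beside 3.83% of all, 3.11% lower and 0.718% higher. At an unadjusted p of 0.05 the edgeR test gave 0 hosts in LN229, 2 in T98G (ZNF148 and ZNF827) and the same 2 for the average. DESeq2 called 0 of the 7 in each. The median log2 fold change of the 7 was -0.59 in T98G, beside -0.03 for all 418, and -0.44 in LN229, beside 0.03. ZNF827 and ZNF800 reached 5 reads only in normoxia libraries, and ZNF148 passed the filter through those of T98G normoxia. Hosts that pass through the group where they are high had to differ, so nothing is rested on these medians.

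Among the ZNF hosts tested with 5 reads in 3 libraries, ZNF148 was furthest from equality in T98G. It had 8, 9 and 5 reads in normoxia and 1, 0 and 0 in hypoxia, while LN229 had 1, 4 and 4 in normoxia and 2, 1 and 9 in hypoxia. In CPM that was 1344 ± 540 against 56.8 ± 98.4 in T98G and 496 ± 304 against 645 ± 702 in LN229 (SD, n = 3). The T98G log2 fold change was -4.04 (SE 1.13), rank 5 of 418 hosts by p, with an unadjusted p of 0.00199 and an adjusted p of 0.107 by edgeR. Over 21 alternatives its adjusted p ran from 0.00993 to 0.329 and its log2 fold change from -6.00 to -3.54. In LN229 the log2 fold change was 0.37 (SE 0.86), and it turned to -0.99 without the third hypoxia library, which held 9 of the 12 hypoxic reads.

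With a filter of 2 reads in 3 libraries, ZNF148 passed in T98G. Its leading loop was called lower with an adjusted p of 0.0316 by edgeR, as 1 of 27 ZNF circRNAs tested, beside 0.724% of all 1381 called lower. The host sum was called with an adjusted p of 0.0143, as 1 of 28, beside 1.01% of all 1483. Its leading loop had 15 reads in T98G normoxia and 0 in hypoxia. With a floor of 3 counts over the hypoxic group, that is 6.06-fold lower as a share of all junction reads. The counting error of the 15 reads is left out, so this is no strict bound. The difference between the lines in this response had an unadjusted p of 0.000837 and an adjusted p of 0.435 by edgeR for the loop, so it did not pass.

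ZNF827 in T98G went from a normoxic mean of 1070 ± 192 to a hypoxic mean of 241 ± 88 CPM (SD, n = 3), a log2 fold change of -2.04 (SE 0.79) with an adjusted p of 0.165 by edgeR. In LN229 it was at 710 ± 352 and 386 ± 285 CPM, and averaged over the lines the log2 fold change was -1.46 (SE 0.55), with an adjusted p of 0.137 by edgeR. It passed for the average, with an adjusted p of 0.0419, only without the third LN229 normoxia library. ZNF236 had -0.59 (SE 0.64) in T98G and -0.44 (SE 0.62) in LN229, and ZNF124 0.06 (SE 0.37) and -0.13 (SE 0.35), with the T98G value at -0.27 when scaled by total reads only. For ZNF124 in T98G the 95% interval of the log2 fold change ran from -0.66 to 0.78.

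For the next counts, reads were scaled to all junction reads, CYP24A1 included, without TMM. On total reads only, the median log2 fold change of all hosts in T98G was -0.35. Among the 26 ZNF hosts with at least 10 reads, 6 were then lower in every T98G hypoxia library than in any T98G normoxia library. That is 23.1%, beside 15.9% of all 1444 hosts of that depth. They were ZNF148, ZNF532, ZNF608, ZNF638, ZNF81 and ZNF827. ZNF532 was apart on this scale only. It had 6 reads in the third T98G normoxia library and 6 in the third T98G hypoxia library. With TMM, 1 read stood for 157.5 CPM in the former and 176.4 CPM in the latter, so its groups overlapped. Conversely, 2 of 26 were higher throughout, ZNF248 and ZNF518A, or 7.69% beside 6.3%. In LN229 none of the 26 was apart in either direction, beside 4.16% lower and 4.85% higher of all. By single loops 6 of 26 were apart and lower in T98G, beside 14.2%, and 0 apart and higher, beside 7.25%. In LN229 1 loop, of ZNF124, was apart and higher, beside 4.41%, and 0 lower, beside 4.19%. With 26 hosts, these shares lie near the background.

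ZNF81 had 3, 4 and 6 reads in T98G normoxia and 2, 1 and 0 in hypoxia. ZNF608 had 3, 1 and 4 against 1, 0 and 1. Over all its loops ZNF638 had 8, 2 and 4 against 2, 0 and 1. Its leading loop, with 10 reads against 0, was 4.04-fold lower against a floor of 3 counts over the group. In the other direction ZNF518A had 0 reads in T98G normoxia and 1, 2 and 4 in hypoxia, 1.92-fold higher against that floor. ZNF248 had 0 against 1, 1 and 3, 1.38-fold higher. These ratios take the few reads of the higher group as exact, so they do not establish a change. In LN229 these hosts were at 3 reads in normoxia and 0 in hypoxia (ZNF518A) and at 3 and 4 (ZNF248). ZNF608, ZNF248 and ZNF518A were named after their values were seen, and none of the 5 passed a test.

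With the filter of 2 reads in 3 libraries, 19 of 27 ZNF circRNAs had a negative log2 fold change in T98G, with a median of -1.10, beside 45.1% of all 1381 with a median of 0.07. Members that pass such a filter through the group where they are high had to differ, so this count describes the fit and nothing is rested on it. In LN229, 16 of 27 were negative with a median of -0.27, beside 54.7% and -0.09. No ZNF circRNA or host with at least 10 reads lay in 1 line or in 1 oxygen condition alone.

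Other zinc finger genes and the silencing machinery that KRAB factors recruit were looked up from gene lists. Their shares are of all junction reads, in which CYP24A1 moves as given above. Of 27 corepressor and heterochromatin genes 13 had circRNAs, with 253 reads. FAM208A, the TASOR subunit of the HUSH complex, had 69 reads, MORC3 45, EHMT1, the methyltransferase GLP, 38 and PPHLN1, the periphilin subunit of HUSH, 28. Their summed share in T98G was 0.509% ± 0.192 in normoxia and 0.173% ± 0.051 in hypoxia (SD, n = 3 each), and the libraries did not overlap. In LN229 it was 0.394% ± 0.148 and 0.399% ± 0.163, with overlap. FAM208A had 14, 8 and 7 reads in T98G normoxia and 2, 3 and 3 in hypoxia, while PPHLN1 had 2, 2 and 2 against 2, 2 and 3. Of the 3 hosts tested, 0 were called in either direction in T98G, with a smallest adjusted p of 0.111 by edgeR, and 0 in LN229.

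Of 140 other C2H2 genes with names outside the ZNF series, 41 had circRNAs, with 878 reads, led by ZKSCAN1 with 152, GLIS3 with 139, ZBTB44 with 72 and RREB1 with 57. Their T98G share was 1.36% ± 0.07 in normoxia and 1.03% ± 0.13 in hypoxia (SD, n = 3 each), with no overlap over all junction reads. Of those reads CYP24A1 took 0%, 0.02% and 11.3% in T98G normoxia and 19.53%, 18.13% and 21.46% in hypoxia. With CYP24A1 left out of the total, the T98G groups of these C2H2 hosts overlap. In LN229 their share was 1.38% ± 0.19 and 1.20% ± 0.13. None of the 7 hosts tested was called in LN229 or T98G by edgeR. The hosts set aside by the naming rule, ZNF292 with 157 reads and ZNF609 with 115, had 0 of 2 called, and ZNF395 had no read. Their T98G share was 0.517% ± 0.096 and 0.310% ± 0.107 (SD, n = 3 each), with no overlap, and in LN229 0.429% ± 0.185 and 0.314% ± 0.023, with overlap. With CYP24A1 reads left out of the total, the T98G groups of these hosts overlap too. ZNF292 had 18, 20 and 17 reads in T98G normoxia and 15, 7 and 6 in hypoxia. ZNF609 had 4, 2 and 20 against 10, 14 and 6. Of 59 zinc finger genes of other kinds, such as ZCCHC11, the uridylyltransferase TUT4, and ZFAND6, 33 had circRNAs, with 550 reads. Their T98G share was 0.732% ± 0.089 and 0.690% ± 0.127, their LN229 share 0.907% ± 0.286 and 0.792% ± 0.204, both with overlap, and 0 of 5 hosts were called.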

How the data were processed

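The deposited table gives, for every circRNA in every library, the authors' junction read count and their log2 value. How the authors scaled the latter was not given in the sources used here; it served as an alternative only. Per the submitters' processing notes, CASAVA 1.8, BWA and hg19 were used, with roles not stated; the circRNA caller was not given in the sources used here. Of 12538 rows, 9526 had a read. Counts were fitted in edgeR 4.0.16 (R 4.3.3) with limma 3.58.1: library sizes were total junction reads, 4298 to 7608, scaled by TMM, with 1 mean per group over all 12 libraries, at least 5 reads in at least 3 libraries, a two-sided quasi-likelihood F test and Benjamini-Hochberg adjustment over all features tested at 0.05. Host sums were fitted likewise. DESeq2 1.42.0 was an alternative, as were other scalings and filters, left-out libraries and a replicate block. The steps were tested on simulated data.

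Members, lists and tests were chosen with earlier results of these data known. Named were the tested circRNAs and hosts, the 10 with most reads, hosts with most loops, extremes of length and span, the 3 smallest p per comparison and up to 4 hosts per list. Exons came from GENCODE 29, matched by gene, span and spliced length, with no coordinate conversion. Fold values against a group at 0 use 3 counts over that group as a floor and take the reads of the other group as exact. Intervals cover counting error only.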

Additional observations from a re-analysis of the deposited data

How the results depend on the processing

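The count of ZNF circRNAs called stayed at 0 in all comparisons and alternatives except in T98G with 2 reads in 3 libraries, where it was 1 (ZNF148). The count of ZNF hosts called in T98G was 1 (ZNF148) with that filter, without a filter, without the third normoxia library of both lines and with only the libraries of the line, and 0 to 1 when leaving out 1 library, the 1 being without the third LN229 normoxia library. For the average it was 0 to 1, the 1 (ZNF827) without the same library. The summed share difference in LN229 ran from -0.62 to 0.025 percentage points when leaving out 1 library, and in T98G from -1.15 to -0.79.

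Of 969 recomputed single values, 928 kept their direction and side of the threshold, 35 changed sign and 6 newly passed; the cause was not tested. On total reads only, the median log2 fold change of all hosts in T98G moved from -0.03 to -0.35, so values there are relative to that shift. The ZNF124 loop at 247318868 went to -0.16 on total reads only and -0.042 with limma for the average, and between the lines to 0.033 with RLE factors, 0.032 with DESeq2 and 0.011 without CYP24A1. The ZNF124 host went to -0.27 in T98G on total reads only and to 0.0030 for the average with 2 reads in 3 libraries, and the ZNF587 loop to 0.46 in LN229 without the third normoxia library of both lines. Leaving out 1 library gave, for the ZNF124 loop at 247318868, -0.85 to 0.036 in LN229, -0.17 to 0.28 for the average and -0.22 to 0.20 between the lines, and for that at 247319708 -0.42 to 0.15 in LN229. It gave -1.21 to 0.46, -0.054 to 0.95 and -0.16 to 0.88 for the ZNF587 loop, -0.044 to 0.27 for the ZNF532 loop between the lines and -0.84 to 0.020 for the ZNF800 loop in T98G. For hosts it gave -0.30 to 0.0071 in LN229, -0.12 to 0.28 in T98G and -0.12 to 0.072 averaged for ZNF124, -0.99 to 0.88 for ZNF148 in LN229 and -0.82 to 0.031 for ZNF800 in T98G.

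Same-numbered libraries of a line did not deviate together (correlations -0.545 to 0.0607 over all circRNAs tested), and the main fits used no pairing. With 3 libraries per group these values cannot tell whether same-numbered libraries were handled together, and the labels do not say. Between the lines, same-numbered normoxia libraries correlated at 0.462, 0.39 and 0.674 and hypoxia ones at -0.0705, -0.0288 and 0.0128, and comparisons that join the lines treat them as independent. The first and second normoxia libraries also correlated across numbers, at 0.289 and 0.353, while the third ran against both, at -0.542 to -0.424. Within LN229, the third normoxia library correlated at 0.555 with the first hypoxia library, and the first normoxia library at 0.444 with the third hypoxia library. The reason was not tested. With a replicate block 0 ZNF circRNAs and 0 hosts were called in each comparison, and ZNF148 in T98G had a log2 fold change of -4.07. Depth limits single circRNAs: 5 of 149 passed the filter of 5 reads in 3 libraries and 27 that of 2 reads.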
